A study of Mus musculus with 4 samples.

Results

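Transcripts of the m6A machinery can themselves carry m6A, and 8 such genes were followed here in mouse heart: the erasers Fto and Alkbh5 and the readers Ythdf1, Ythdf2, Ythdf3, Ythdc1, Fmr1 and Prrc2a. They were taken by gene symbol from the deposited lists of m6A sites in mRNAs, and they held 14 of 10388 sites in the KO list and 15 of 10814 sites in the WT list. They are 8 of 6660 genes with a site in either list, and were picked knowing that each had one, so the count of members with a site is not a result. The KO list came from hearts of ABRO1 Knockout mice and the WT list from hearts of wild type mice, both on a C57BL/6 background. Each genotype had 1 immunoprecipitate (IP), pulled down with an anti-m6A antibody, and 1 input library without the pull-down, 4 libraries in all, and each list was called from both libraries of its genotype. ABRO1, now named Abraxas2, is a scaffold protein of a deubiquitinase complex. The labels do not say how old the mice were, how many hearts went into a library or which part of the gene was removed. Whole hearts were used, so the RNA came from all cell types of the organ, and fewer cells of a type cannot be told apart from less RNA per cell.

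N6-methyladenosine (m6A) is written onto mRNA by a nuclear methyltransferase complex. Erasers are enzymes that oxidise the mark and remove it, and readers are proteins that bind RNA carrying it and steer its splicing, export, translation or decay. FTO was the first m6A demethylase described and its amount in heart muscle has been linked to contractile function. The 3 YTHDF proteins are close paralogs that bind m6A in the cytoplasm through a shared YTH domain, and YTHDC1 is the nuclear reader with the same domain.

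There were no replicates, so the genotypes were not tested against each other, and every difference below is one between 2 lists. Read counts per site were not among the deposited values, and the depth is unknown. The fold of a site is the IP over input enrichment from the authors' peak caller, and the score is minus 10 times the log10 of its p, so that a larger score is a smaller p. Both describe a site within its own list; neither is a measure of how methylation differs between genotypes. Many strong sites share 1 score, 3100, which stood at 872 KO and 911 WT sites. Abraxas2 itself had 0 sites in the KO list and 0 in the WT list, so the lists do not check the genotype. Both lists held sites of 4 of 12 cardiomyocyte markers (Tnnt2, Ttn, Ryr2 and Nkx2-5), and 8 had none, among them Myh6 and Myl2. Of 4 endothelial markers 3 had a site in both lists, of 4 fibroblast markers 2 had one in both and Tcf21 had one in the WT list only, and of 4 macrophage markers none had one. A site list is no measure of expression, and these counts do not check the tissue.

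Most eraser and reader sites were shared between genotypes. Both lists held sites of 7 of the 8 genes, Alkbh5 had one in the WT list only, and 0 had one in the KO list only. Among all genes with a site, 14.0% were in the WT list only and 11.6% in the KO list only, so 1 of 8 is near the background. Where sites on the same strand with 1 bp or more in common were paired, 13 sites of each list formed 13 pairs. That left 1 of 14 KO sites (in Ythdc1) and 2 of 15 WT sites (in Alkbh5 and Fmr1) without a partner, against 19.6% of all KO sites and 22.8% of all WT sites. The number of sites was equal in both lists for 5 of the 8 genes. The same share over all genes was not computed, so whether this is usual is unknown. No site assigned to another gene lay inside the span of any of the 8 genes or within 5000 bp of it, in either list or on either strand. Coordinates are 1-based, in mm10, and gene spans are those of RefSeq for GRCm38.p6, the same assembly. Spans hold no exons, so whether a site is exonic, intronic or in an untranslated region was not determined.

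**Figure D1:**
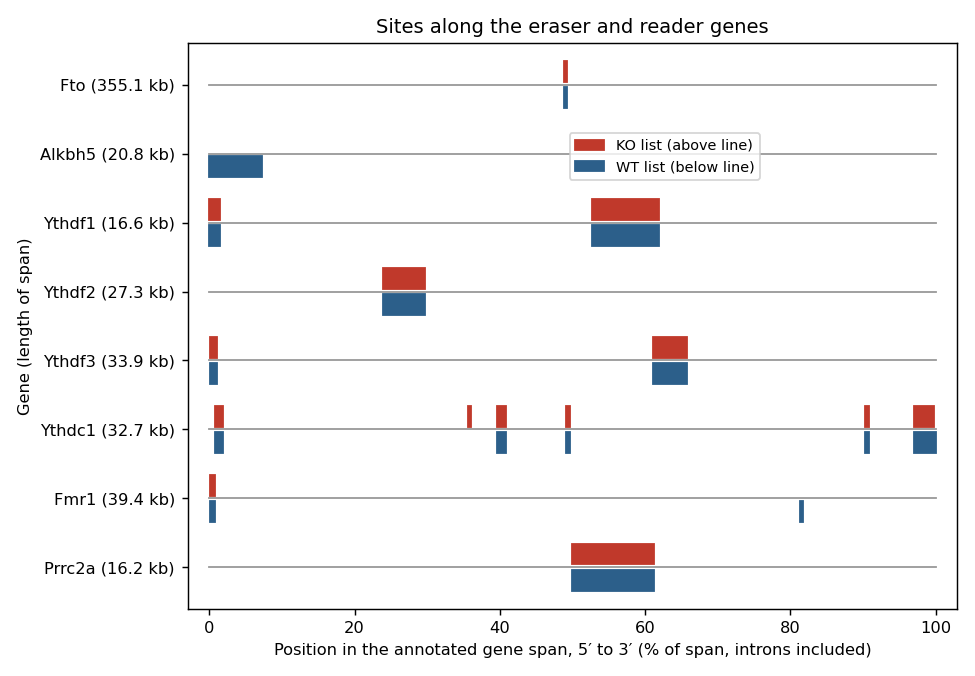
Sites of the 8 genes along the annotated gene span, from 5′ to 3′ in percent of the span with introns included, with KO sites above each line and WT sites below it. Sites narrower than 0.5% of the span are drawn at 0.5%. The 13 pairs lie in matching places, Alkbh5 has a WT site alone at its start, and Ythdc1 carries the most sites, 6 in the KO list and 5 in the WT list.

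Several of the sites opened at the start of the gene. RefSeq start windows, which run from 250 bases before a gene start to 50 bases after it, were found for 7 of the 8 genes, all but Ythdf3. A site reached into the last 50 bases of the window in 3 of these 7 genes in the KO list (Ythdf1, Ythdc1 and Fmr1) and in 4 of 7 in the WT list (these 3 and Alkbh5). Over all genes with a site and a window, the shares were 38.3% in the KO list and 37.1% in the WT list. Each of these shares counts only genes with a site in that same list. The 7 genes include Alkbh5, which had no KO site, so 3 of 7 is not on the same footing as 38.3%. The 4 windows are printed because they hold the edge at which these sites begin. Each is given 5′ to 3′ on the strand of the gene, from RefSeq for GRCm38.p6, with the bases covered by the WT site in capitals.
Ythdf1, chr2:180920887-180921186, minus strand: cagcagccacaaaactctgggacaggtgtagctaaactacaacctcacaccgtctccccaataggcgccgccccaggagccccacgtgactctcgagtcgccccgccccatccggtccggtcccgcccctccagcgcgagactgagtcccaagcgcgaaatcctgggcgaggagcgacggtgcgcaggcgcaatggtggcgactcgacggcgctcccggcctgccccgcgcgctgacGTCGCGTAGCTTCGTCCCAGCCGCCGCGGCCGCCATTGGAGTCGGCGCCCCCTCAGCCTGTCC
Ythdc1, chr5:86804016-86804315, plus strand: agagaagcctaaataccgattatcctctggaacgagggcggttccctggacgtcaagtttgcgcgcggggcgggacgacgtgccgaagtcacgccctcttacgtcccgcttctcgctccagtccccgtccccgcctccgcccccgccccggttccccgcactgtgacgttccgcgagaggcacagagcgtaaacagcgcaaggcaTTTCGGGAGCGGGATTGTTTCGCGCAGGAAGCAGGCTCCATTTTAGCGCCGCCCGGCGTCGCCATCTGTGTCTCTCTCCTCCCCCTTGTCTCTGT
Fmr1, chrX:68678332-68678631, plus strand: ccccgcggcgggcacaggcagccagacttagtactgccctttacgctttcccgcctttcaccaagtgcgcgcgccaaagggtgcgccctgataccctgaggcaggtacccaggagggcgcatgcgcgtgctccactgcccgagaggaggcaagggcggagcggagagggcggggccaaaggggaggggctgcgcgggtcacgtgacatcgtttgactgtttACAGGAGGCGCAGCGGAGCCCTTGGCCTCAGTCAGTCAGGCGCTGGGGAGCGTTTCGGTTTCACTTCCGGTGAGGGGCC
Alkbh5, chr11:60537433-60537732, plus strand: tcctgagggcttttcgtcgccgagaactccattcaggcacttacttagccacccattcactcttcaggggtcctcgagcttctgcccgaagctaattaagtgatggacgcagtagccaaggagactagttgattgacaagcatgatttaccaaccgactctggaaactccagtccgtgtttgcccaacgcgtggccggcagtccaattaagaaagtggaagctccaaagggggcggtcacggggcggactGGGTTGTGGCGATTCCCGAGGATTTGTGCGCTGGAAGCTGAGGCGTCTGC

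The capitals cover 63 bases for Ythdf1, 95 for Ythdc1, 79 for Fmr1 and 50 for Alkbh5. The KO sites covered the same 63 and 95 bases of the Ythdf1 and Ythdc1 windows, 56 bases of the Fmr1 window and 0 of the Alkbh5 window. The WT site of Alkbh5 thus begins exactly at the gene start used for its window, and the WT sites of Ythdf1, Fmr1 and Ythdc1 begin 13, 29 and 45 bases before theirs. The choice of start matters: Fmr1 has 2 windows in the table, and in the other one its WT site begins 12 bases after the start. The Ythdc1 site begins 241 bp after the outermost annotated start of that gene. Forms of the sequence in which the methyltransferase complex acts were searched on both strands, with overlapping matches counted. The motifs searched were GGACT, its variants GGACA or GGACC at the last letter, and its variants GAACT or AGACT at one earlier letter, as well as AAACT with both changed. None was found among the capitals on the strand of the gene, and on the opposite strand GGACA was found once, in Ythdf1. The capitals are only part of the WT sites, which are 266 bp long in Ythdf1, 371 in Ythdc1, 315 in Fmr1 and 1513 in Alkbh5. The rest of each site was not searched, so this does not show that the sites lack a motif. In Alkbh5, GGACT stood at position 246 of the window, counted from its 5′ end, directly before the first covered base. Each motif occurs on the strand of the gene in 24.8% to 28.2% of all 32851 windows and on either strand in 43.3% to 47.9%, so a match in a window is common. These shares are for whole windows, not for stretches as short as the capitals.

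The 2 erasers had sites that scored low or were unshared. Fto encodes a demethylase of m6A in mRNA and lies on chromosome 8 over a span of 355067 bp. Its single site on the plus strand ran from 91487289 to 91487791 in the KO list, where its fold was 6.98 and its score 54.2. It ran from 91487238 to 91487791 in the WT list, where its fold was 7.98 and its score 58.9. The end was shared and the KO site began 51 bp later. It lay near the middle of the gene, with the centre of the KO site 49.1% into the span. Both lists assigned it to the transcript uc009msr.2, which has no RefSeq mRNA name. Whether that transcript encodes the demethylase was not determined. Both scores stood near the floor of their lists: 97.5% of KO sites and 94.5% of WT sites scored as high or higher. Alkbh5, the other known m6A demethylase of mRNA, lies on chromosome 11. It had 0 sites in the KO list, and in the WT list a site of 1513 bp (60537683 to 60539195) whose fold was 7.86 and whose score was 178. The nearest KO site of any gene on that chromosome was 184777 bp away. The missing KO site does not show that the RNA was unmethylated in knockout hearts.

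The layouts of the 3 cytoplasmic YTHDF readers were alike in part. Each had 1 long site inside the gene, at the same start and end in both lists. Its centre was 57.3% into the span in Ythdf1, 26.8% in Ythdf2 and 63.4% in Ythdf3. Ythdf1 and Ythdf3, but not Ythdf2, had a second, short site at the gene start. A long site in both lists is not particular to them: Prrc2a had one, as did 24.5% of the 4955 genes in both lists. Ythdf1, which promotes translation of m6A-marked mRNA, is on chromosome 2 on the minus strand. Its long site of 1521 bp (180910687 to 180912207) had folds of 4.15 in the KO list and 4.28 in the WT list, and scores of 248 in the KO list and 145 in the WT list. Its start site of 266 bp (180920684 to 180920949, overlapping the window printed above) had folds of 5.32 in the KO list and 6.84 in the WT list. The scores of that site were 144 in the KO list and 69.9 in the WT list. For both Ythdf1 sites the fold was lower and the score higher in the KO list.

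Ythdf2, the reader that recruits deadenylases and speeds decay, is on chromosome 4 on the minus strand. Its only site, 1584 bp from 132204132 to 132205715, had a fold of 6.96 (score 922) in the KO list and 10.6 (score 2089) in the WT list. Both values were lower in the KO list. Ythdf3, which is held to act together with the other two, is on chromosome 3 on the plus strand. Its long site of 1599 bp (16203826 to 16205424) had folds of 4.47 in the KO list and 5.21 in the WT list and scores of 934 in the KO list and 747 in the WT list. Its start site of 338 bp (16183183 to 16183520) began 35 bp into the span. That site had a fold of 9.24 (score 555) in the KO list and 17.5 (score 1125) in the WT list. The start site of Ythdf3 had the largest fold of the 5 YTHDF sites in each list, and the long sites of Ythdf1 and Ythdf3 the 2 smallest.

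Ythdc1, the nuclear reader that acts in splicing and export, carried the most sites of the 8 genes and the largest fold in each list. It is on chromosome 5 on the plus strand and had 6 sites in the KO list and 5 in the WT list, which cover 2045 bp of its 32680 bp span in the KO list and 1999 bp in the WT list. Genes with 5 or more sites made up 5.06% of genes in the KO list and 5.10% in the WT list. From 5′ to 3′, the first site (86804221 to 86804591) is the one that opens in the window printed above, with folds of 39.4 in the KO list and 41.6 in the WT list. The second, 102 bp from 86815629 to 86815730, was in the KO list alone, at fold 10.5 and score 576.

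The third Ythdc1 site (86816907 to 86817333) had the largest fold of the 8 genes in both lists, 44.0 in the KO list and 59.6 in the WT list. Folds as high or higher were found at 208 of all KO sites and 164 of all WT sites. The fourth site, 89 bp long in the KO list and 90 bp in the WT list (from 86820086), had folds of 15.5 in the KO list and 19.9 in the WT list. The fifth (86833508 to 86833642) had folds of 21.9 in the KO list and 30.7 in the WT list. The last site began at 86835684 in both lists and ended at 86836604 in the KO list and at 86836659, the annotated end of the gene, in the WT list. Its folds were 32.7 in the KO list and 31.8 in the WT list, the only pair of the 13 with the higher fold in the KO list. It was assigned to the transcript NM_177680 in the KO list and to ENSMUST00000120498 in the WT list. The paired sites scored from 2199 to 3111 in the KO list and from 2182 to 3100 in the WT list. The sites were spread over the gene, with gaps of 1176 to 13333 bp between neighbours in the KO list and 2041 to 13332 bp in the WT list.

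Fmr1 encodes FMRP, an RNA-binding translational regulator that also binds m6A-marked RNA, and lies on the X chromosome on the plus strand. Its strong site at the gene start ran from 68678576 to 68678867 in the KO list, where its fold was 35.8 and its score 1180. In the WT list it ran from 68678553 to 68678867, and its fold was 53.4 and its score 1400. The KO site began 23 bp later and ended at the same base. A second site of 196 bp (68710584 to 68710779), 81.5% into the span, was in the WT list alone, at fold 7.68 and score 56.9. Prrc2a, described as an m6A reader in mouse oligodendrocytes, is on chromosome 17 on the minus strand. Its only site, 1842 bp from 35155366 to 35157207, had a fold of 6.34 (score 57.5) in the KO list and 7.95 (score 91.4) in the WT list. This is a long site with a low score, which 95.6% of KO sites and 80.0% of WT sites matched or exceeded. It stood less low by fold, which 66.4% of KO sites and 62.2% of WT sites matched or exceeded.

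Ranked by the largest fold of each gene, the KO list ran Ythdc1 (44.0), Fmr1 (35.8), Ythdf3 (9.24), Fto (6.98), Ythdf2 (6.96), Prrc2a (6.34) and Ythdf1 (5.32). The WT list ran Ythdc1 (59.6), Fmr1 (53.4), Ythdf3 (17.5), Ythdf2 (10.6), Fto (7.98), Prrc2a (7.95), Alkbh5 (7.86) and Ythdf1 (6.84). Ythdc1, Fmr1 and Ythdf3 led both lists in the same order. With 1 list per genotype there is no spread to separate neighbours in either order.

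**Figure D2:**
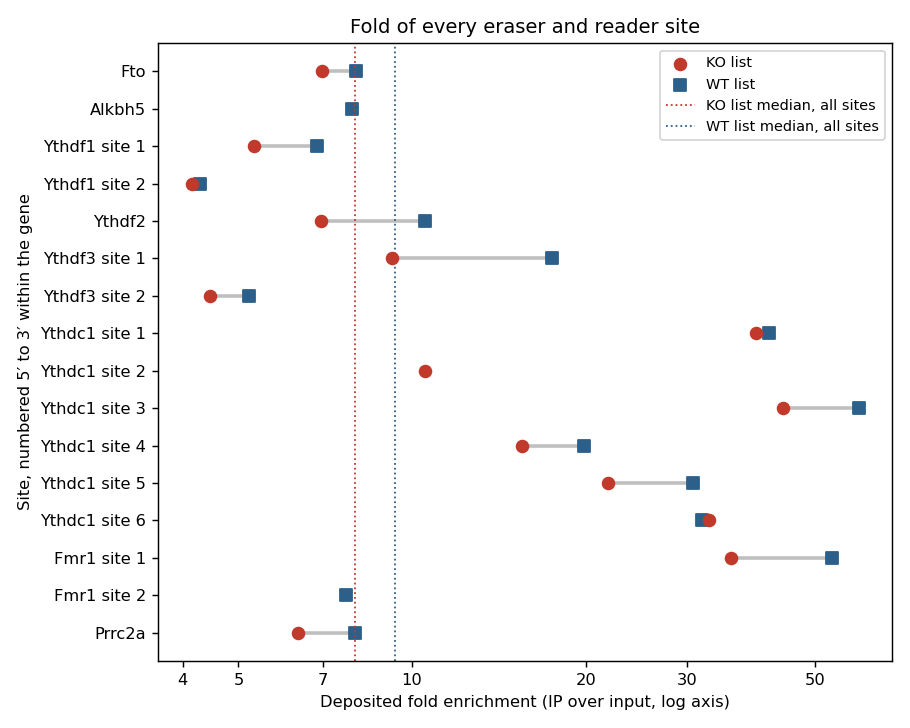
Deposited fold enrichment (log axis) of every site of the 8 genes, 1 row per site from 5′ to 3′, with circles for the KO list and squares for the WT list. Dotted lines mark the medians over all sites, 7.96 in the KO list and 9.35 in the WT list. The paired Ythdc1 sites and the first Fmr1 site lie right of both medians, and all pairs but the last of Ythdc1 have the circle left of the square.

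Read together, the folds of the 8 genes were spread on both sides of the list medians. Their median was 9.89 over 14 KO sites and 10.6 over 15 WT sites, beside 7.96 over all KO sites and 9.35 over all WT sites. Among sites with a score of at least 100, the median was 13.01 over 12 KO and 19.9 over 11 WT sites of the 8 genes, beside 9.29 over all such KO sites and 11.04 over all such WT sites. In each list 8 of the sites lay above the median of that list. These 8 were the Ythdc1 sites, the start sites of Fmr1 and Ythdf3, and, in the WT list, Ythdf2. In the 13 pairs, the fold was lower in the KO list in 12. This was the usual direction: 73.7% of all 8370 overlapping pairs had the lower fold in the KO list. The 13 pairs come from 7 genes, 5 of them from Ythdc1, and are not independent. The scores did not share the direction: they were lower in the KO list in 5 pairs, higher in 6 and equal in 2, against 46.7% lower over all pairs. Both equal pairs stood at the shared score of 3100. The 6 include Ythdc1 pairs at 3111 (KO) against 3100 (WT) and 3100 (KO) against 3072 (WT). The split among pairs near 3100 is therefore not a safe order of p. The authors' false discovery rate was 100% at every one of the 14 KO sites, and at 9 of the 15 WT sites. Over the whole lists it was 100% at 10385 of 10388 KO sites (100%, rounded) and at 82.9% of WT sites. It ran from 83.3% to 93.5% at the other 6 WT sites, the 5 Ythdc1 sites and Ythdf2.

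**Figure D3:**
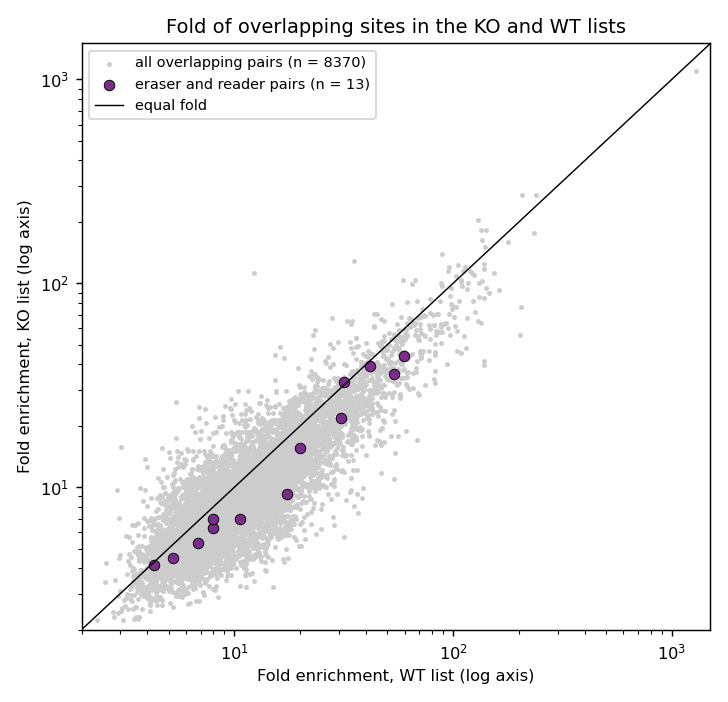
Fold in the KO list (vertical, log axis) against fold in the WT list (horizontal, log axis) for all 8370 overlapping pairs of sites (grey) and the 13 pairs of the 8 genes (purple), with a line at equal fold. Of the 13 pairs, 12 lie below the line, as do 73.7% of all pairs.

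The site edges were largely the same in both genotypes. Start and end were identical in 9 of the 13 pairs, close to the 70.5% of all pairs. The others were Fto, Fmr1 and 2 Ythdc1 pairs, with shifts of 1 to 55 bp at a single edge. The shift of 55 bp was at the last Ythdc1 pair, whose sites were assigned to different transcripts in the 2 lists. Sites of 1500 bp or more were 4 of 14 in the KO list and 5 of 15 in the WT list, against 14.5% of all KO sites and 15.3% of all WT sites. They were the inner sites of Ythdf1, Ythdf2, Ythdf3 and Prrc2a and, in the WT list, Alkbh5. Their folds, 4.15 to 6.96 in the KO list and 4.28 to 10.6 in the WT list, were all below the median of sites of that length, 8.83 in the KO list and 10.7 in the WT list.

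The paralogs of Prrc2a also had long inner sites, but with far higher scores than its 57.5 in the KO list and 91.4 in the WT list. Prrc2b and Prrc2c each had 1 long inner site with identical edges in both lists. That of Prrc2b (2061 bp, chromosome 2, 32212887 to 32214947) had folds of 8.46 in the KO list and 11.1 in the WT list, the WT value above the median of long sites, and a score of 3100 in both lists. That of Prrc2c (2253 bp, chromosome 1, 162704369 to 162706621) had folds of 4.86 in the KO list and 5.46 in the WT list, and scores of 2374 in the KO list and 2542 in the WT list. With the YTHDF genes, this makes 6 of 6 long pairs with identical edges, at 26.8% to 75.3% of the span, whereas 41.1% of all pairs of long sites had identical edges. These 6 genes were put together after their values were seen, so the count is a description. Unlike Prrc2a, both paralogs had further sites: Prrc2c had one of 547 bp with folds of 115 in the KO list and 111 in the WT list, and Prrc2b had 6 pairs in all.

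The 3 sites without a partner differed in how common that was at their score. In the WT list, the Fmr1 site at 68710584 was in the weakest 10% by score, where 58.2% of sites (exact 95% interval 55.2 to 61.2) had no KO partner. The Alkbh5 site was in the fourth decile from the bottom, where 28.8% (26.1 to 31.6) had none. The second Ythdc1 site was in the seventh decile of the KO list, where 4.62% (3.43 to 6.08) had no WT partner, 48 of 1039 sites. The last was thus the least usual of the 3 for its score. It lay 1176 bp upstream of the third Ythdc1 site, which was strong in both lists. These intervals hold counting error alone and take each site as independent.

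**Figure D4:**
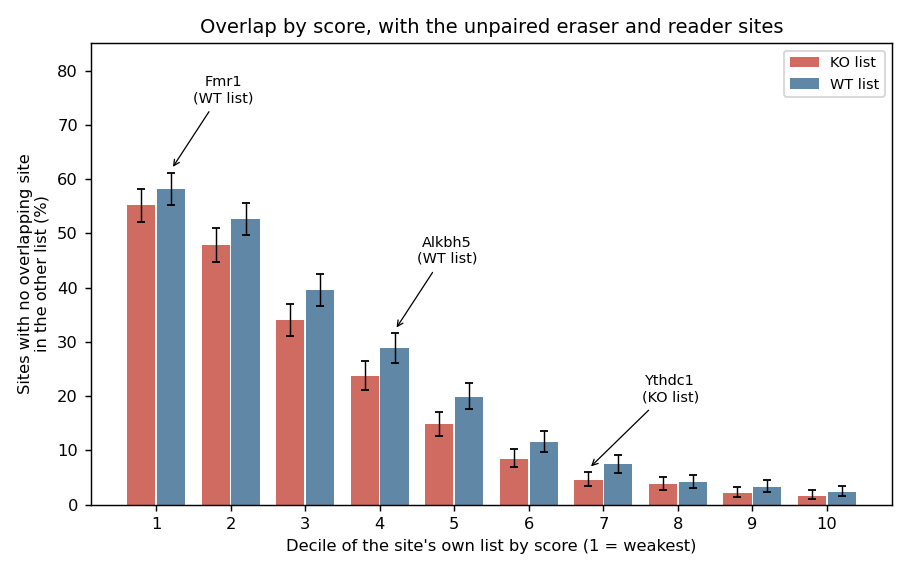
Share of sites with no overlapping site in the other list (bars, in percent, with exact 95% intervals) by decile of the score within each list, with KO bars left of WT bars. Arrows mark the decile that holds each of the 3 unpaired eraser and reader sites. The share is 4.62% in the decile of the Ythdc1 site, 28.8% in that of the Alkbh5 site and 58.2% in that of the Fmr1 site.

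Of 28 other m6A genes, 11 were listed in both genotypes, 2 in the WT list only, 0 in the KO list only and 15 in neither. The 2 are 15.4% of the 13 with a site, near the 14.0% of all genes with a site that were in the WT list only, and 11.6% of all were in the KO list only. Among 16 genes grouped here as further readers, 4 were listed in both genotypes, 0 in the KO list only, G3bp1 in the WT list only and 11 in neither. G3bp1 is a stress granule protein whose binding m6A is reported to repel, so it is not a reader as defined above. Its site had a low score (fold 8.45, score 58.8). The relatives of FMRP differed: Fxr2 had 1 pair with folds of 4.80 in the KO list and 5.31 in the WT list, and Fxr1 had no site. Ythdc2, the YTH protein known for its role in meiosis, had none either. The 12 genes grouped as writers, not all of them part of the mRNA methyltransferase complex, were listed in both genotypes in 7 cases. In the KO list only there were 0, and 4 were in neither. Mettl16, which methylates U6 snRNA, was in the WT list only (fold 8.69, score 80.2). The sites of the 13 listed genes had a median fold of 11.5 over 38 KO sites and 11.1 over 39 WT sites, beside the medians over all sites of 7.96 in the KO list and 9.35 in the WT list. The KO sites came from 11 genes and the WT sites from 13. A single writer gene held 11 of the KO and 12 of the WT sites, so these medians weigh few genes heavily.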

How the data were processed

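The deposited data are 1 table of m6A sites per genotype, with a strand file of the same sites. The submitters' processing notes name HISAT2 2.0.4, cutadapt 1.9.3 and the genome build mm10. Site names begin with MACS, a peak caller, per the deposited tables; how it was run is not stated. The labels and the design text name different stranded library kits. Per the file headers, the fold is a linear ratio, the score is minus 10 times the log10 of p, and the false discovery rate is in percent; these are the authors' values.

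Sites were taken by gene symbol and compared by overlap with Python 3.11.15, pandas 2.3.3 and numpy 2.4.6; intervals used scipy 1.17.1. The overlap code was tested on simulated intervals. Sites were split into 10 deciles by score, equal scores in genome order. All 8 genes matched a RefSeq gene by gene ID. The 8 genes, the lists of other m6A genes and of cell markers, and the comparisons were chosen with earlier results of these data known. The naming rule covers the 8 genes, their paralogs and list genes in 1 list only; Myh6, Myl2 and the markers with a site were named after their values were seen. Alternatives were a score of at least 100, lists of equal length, an overlap of 50% of both sites, strand ignored, and sites taken by gene span.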

Additional observations from a re-analysis of the deposited data

How the results depend on the processing

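Under the 5 alternatives, 33 values were recomputed, and each count stayed within 1.5 times its main value and each median fold within its 95% interval from order statistics. Both settings of the overlap, 50% of both sites and strand ignored, gave the same 13 pairs, 12 of them with the lower fold in the KO list. Neither could have changed them: every pair shared well over 50% of both sites, and no site of another gene lay near these genes. Lists of equal length, and sites taken by gene span, left 14 KO and 15 WT sites, with Alkbh5 still in the WT list only. Taking sites by gene span could add none either, for the same lack of other sites nearby. The unchanged counts under the overlap and span settings are therefore no evidence that the results are stable. A score of at least 100 left 12 KO and 11 WT sites in 10 pairs, 9 of them with the lower fold in the KO list. It removed Fto and Prrc2a from both lists, leaving 5 genes in both, and moved the median fold to 13.01 in the KO list and 19.9 in the WT list, within the intervals of 5.32 to 35.8 and 7.68 to 31.8 around the main medians. The intervals take sites as independent, although Ythdc1 alone gave 6 KO and 5 WT sites. They are wide, so a median inside them is not shown to be stable: the WT median moved from 10.6 to 19.9. No paired analysis was possible because each genotype has 1 list. No limit of detection could be set, since the lists hold no read counts, and leaving out a replicate was not possible.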
